A study of Xenopus tropicalis with 44 samples.

Results

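At stage 7 of the western clawed frog Xenopus tropicalis, embryos given E2F1 mRNA together with an E2F1 morpholino (E2F1 rescue) were compared with embryos given the morpholino alone (E2F1 MO). The comparison used the columns of the gene count table that carry these labels, 2 libraries per group, which makes 4 of the 44 libraries in the series, and e2f1 itself was checked and then left out of every count. The series measured messenger RNA in whole embryos of 22 groups, from stage 3 to stage 13, and its title concerns E2f1 and Otx1 in early zygotic transcription. E2F1 rescue and E2F1 MO embryos both carried the morpholino, a synthetic antisense oligomer that blocks use of the target RNA, and differed by label in the injected E2F1 mRNA alone. Wild-type (WT) embryos, listed with no treatment, are given beside them. The labels name no group with a control morpholino or a control mRNA, and they give neither dose nor site of injection. They also name no clutch and no time of collection, so these cannot be told apart from the injected mRNA in any difference below. E2F1 rescue and E2F1 MO embryos of stages 6 and 8 serve to show where stage 7 differs. Embryos of stages 7 and 8 given an OTX1 morpholino (OTX1 MO), or the E2F1 and OTX1 morpholinos together, are also set beside them in places.

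E2F1 is a transcription factor that binds DNA with a DP partner, is restrained by pocket proteins of the retinoblastoma family, and is best known for switching on genes of DNA replication at the entry into S phase. The frog egg holds a store of maternal RNA and divides rapidly with little transcription of its own. During the blastula stages maternal RNAs are cleared while the zygotic genome is switched on, and genes for Nodal ligands and for the Siamois transcription factors are among the earliest to appear.

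The 4 libraries were deep and close to their replicates. Total counts were 24286601 and 25806692 in E2F1 rescue, against 30394933 and 27240245 in E2F1 MO, and 31065046 and 31220148 in WT of stage 7. The chi-square per gene between replicates was 1.4 in E2F1 rescue and 1.85 in E2F1 MO, and the highest of the 22 groups was 32.9, in E2F1 rescue of stage 8. Whether replicate libraries stem from different clutches is not stated in the labels, and the p-values therefore cover only the variation among these libraries, which could be technical. All 12 markers of the early embryo stood at 1 CPM or more in both groups (CPM being counts scaled to a common library size with TMM factors), with summed levels of 4590 and 4620 CPM in E2F1 rescue and 4700 and 4770 CPM in E2F1 MO. Markers of adult blood, liver, ovarian follicle, muscle and neuron summed to at most 1.09 CPM per cell type in any of the 4 libraries. Of the epidermis markers, krt12.4 stood at 0.154 CPM or less, and cldn6.1 and grhl1 were abundant in both groups. The epidermis marker krt5.7 and the ovarian follicle marker fshr had no row under those names in the gene count table.

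The injected RNA was seen in the libraries labelled with it. The e2f1 gene held 32269 and 32728 CPM in E2F1 rescue, or 3.443 and 3.49% of all counts, against 403.71 and 413.24 CPM in E2F1 MO and 491.41 and 495.36 CPM in WT. Reads of the injected and of the embryo's own e2f1 RNA share this one row, so the embryo's own e2f1 RNA in E2F1 rescue was not measured.

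The table of RNAs differed widely between the groups. Of 16063 genes tested, 6968 were called at an adjusted p under 0.05 (43.4%; edgeR quasi-likelihood test with Benjamini-Hochberg adjustment), of which 3224 were higher in E2F1 rescue (20.1%) and 3744 lower (23.3%). The change was 2-fold or more for 2078 genes (12.9%), 862 of them higher and 1216 lower. The 2 ends of this range held different kinds of RNA. The 12 deepest falls were, lingo4 excepted, genes that WT embryos held at stage 8. The 12 largest rises were RNAs that WT embryos already held at stages 3 and 6 and that stood under 1 CPM in E2F1 MO of stage 7.

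**Figure D1:**
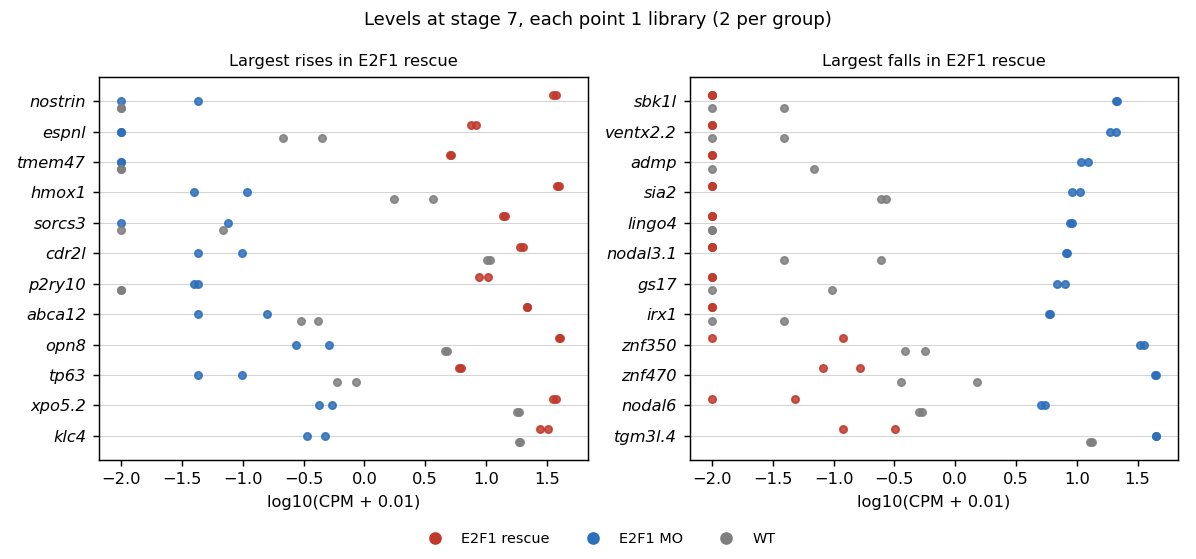
Levels at stage 7 of the 12 called genes with the largest rises (left) and the 12 with the largest falls (right) in E2F1 rescue over E2F1 MO. Each point is 1 of 2 libraries per group, and the horizontal axis is log10 of CPM plus 0.01, so that 0 CPM lies at -2. For the falls WT points lie below those of E2F1 MO, at 0 to 1.49 CPM except for tgm3l.4 (12.8 and 13.4 CPM), and for nostrin, tmem47, sorcs3 and p2ry10 they lie near those of E2F1 MO.

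Genes of the earliest zygotic program fell most. A list of early mesendoderm and organizer genes held 76 names, 64 of them in the table, and all 64 passed the filter on low counts. Of these 64, 44 were lower in E2F1 rescue than in E2F1 MO, 1 was higher and 19 were not called. Thus 68.8% were lower, where 23.3% of all tested genes were, and 41 of the 44 were lower by 2-fold or more. The median log2 change of the list was -4.92, or -3.55 with genes at 0 in 1 group set at their bound, against 0 over all genes tested at stage 7. In both E2F1 rescue libraries 32 of the 64 genes held 0 counts, as did 1 in E2F1 MO and 17 in WT of stage 7. At least 1 CPM in both libraries was reached by 9 of the 64 genes in E2F1 rescue, by 37 in E2F1 MO and by 8 in WT of stage 7, and by 36 in WT of stage 8.

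Among the Nodal ligands, secreted TGF-beta family signals that induce mesoderm and endoderm, 4 of 6 measured genes were lower and the other 2, nodal1 and nodal2, stood at 0.0658 CPM or less. nodal3.1 held 0 counts in both E2F1 rescue libraries, against 8.26 and 8.06 CPM in E2F1 MO, and 0.234 and 0.0291 CPM in WT. It was at least 145-fold lower in E2F1 rescue, taking 3 counts over the group as the floor (adjusted p = 5.61e-12, edgeR quasi-likelihood test). Of these 3 groups E2F1 MO alone held more than 0.234 CPM. nodal5 likewise held 0 counts in E2F1 rescue, against 1.86 and 2.14 CPM in E2F1 MO, and was at least 35.5-fold lower (adjusted p = 5.73e-09). nodal6 had 0.0386 and 0 CPM in E2F1 rescue, against 5.45 and 5.04 CPM in E2F1 MO, and 0.498 and 0.524 CPM in WT (adjusted p = 7.19e-15, edgeR). For nodal6 WT lay between E2F1 rescue and E2F1 MO, without overlap with either. The Nodal antagonist lefty stood at 0.0386 and 0 CPM in E2F1 rescue, against 4.92 and 5 CPM in E2F1 MO (adjusted p = 3.99e-14).

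Genes of the dorsal and of the ventral side were both among the falls. sia1 and sia2, the Siamois homeodomain factors induced by maternal Wnt signals on the dorsal side, held 0 counts in both E2F1 rescue libraries. sia2 had 9.14 and 10.7 CPM in E2F1 MO and was at least 176-fold lower in E2F1 rescue (adjusted p = 1.93e-15), while WT had 0.234 and 0.262 CPM. All 6 ventx genes, homeodomain repressors that act under BMP signals on the ventral side, held 0 counts in E2F1 rescue and were called lower. ventx2.2 had 21.1 and 18.7 CPM in E2F1 MO, against 0 and 0.0291 CPM in WT, and was at least 355-fold lower in E2F1 rescue (adjusted p = 1.18e-17). admp, a BMP-like ligand of the organizer, had 10.8 and 12.2 CPM in E2F1 MO and was at least 205-fold lower (adjusted p = 1.9e-14). The organizer factor gsc had 0.59 and 0.658 CPM in E2F1 MO and 0 counts in E2F1 rescue, at least 11.1-fold lower (adjusted p = 9.77e-06). E2F1 rescue and E2F1 MO did not overlap in any of these genes, although gsc was low even in E2F1 MO. For sia2, ventx2.2 and admp, which were among the 12 deepest falls, absence of overlap was a condition of that choice. The others were also called genes, so the absence of overlap adds nothing to the tests.

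Endoderm and ectoderm factors moved with them. mix1, a homeodomain factor of the mesendoderm, held 0 counts in E2F1 rescue, against 4.84 and 4.08 CPM in E2F1 MO, and was at least 79.8-fold lower (adjusted p = 2.59e-08). sox17a, an endoderm factor, had 0.154 and 0.0363 CPM in E2F1 rescue, against 3.45 and 2.7 CPM in E2F1 MO, a log2 change of -4.96 ± 0.59 (SE, adjusted p = 6.2e-08), and all 3 tested sox17 genes were lower. eomes, a T-box factor of the mesendoderm, had 0.81 and 0.799 CPM in E2F1 rescue, against 7.84 and 7.83 CPM in E2F1 MO, and 0.146 and 0.0583 CPM in WT (log2 change -3.28 ± 0.21, adjusted p = 1.52e-16). Both E2F1 rescue libraries stood above WT for eomes. The ectoderm factors tfap2a and foxi1 held 0 counts in E2F1 rescue and were at least 47.4-fold and at least 43.5-fold lower than in E2F1 MO. bambi, a decoy receptor for BMP and Activin that is also a maternal RNA, was the 1 member called higher, with 168 and 167 CPM in E2F1 rescue, against 127 and 129 CPM in E2F1 MO (log2 change 0.39 ± 0.06, adjusted p = 1.86e-06). vegt, a maternal T-box factor of the vegetal pole, had 440 and 429 CPM in E2F1 rescue, against 468 and 465 CPM in E2F1 MO, which did not pass the test (log2 change -0.10 ± 0.05, adjusted p = 0.118). None of the 3 gata genes in the list passed the test. Some genes of the ventx, nodal, sia and bix families have close copies, and how reads were split among such copies is uncertain. In whole embryos fewer cells of a type and less RNA per cell cannot be told apart.

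Among genes with a symbol and at least 5 CPM in the higher group, sbk1l, another member of the list, had the largest fitted fall. It had 0 counts in both E2F1 rescue libraries, against 21.4 and 20.9 CPM in E2F1 MO, at least 377-fold lower (adjusted p = 9.01e-16). The order of genes at or near 0 counts in E2F1 rescue depends on the fit. Genes outside the list also fell. irx1, an Iroquois homeodomain factor, had 6.01 and 5.86 CPM in E2F1 MO and was at least 106-fold lower (adjusted p = 3.59e-16). The zinc finger gene znf350 had 0 and 0.109 CPM in E2F1 rescue, against 35.6 and 33.2 CPM in E2F1 MO, a ratio of 0.00163 with a 95% counting interval of 0.000336 to 0.00477 (adjusted p = 1.6e-19). In WT these genes stood at 0.556 CPM or less at stage 7, while at stage 8 WT held 25.2 CPM of sbk1l, 9.85 CPM of irx1 and 79 CPM of znf350 on average. lingo4 stood apart from this pattern. It had 8.82 and 9.12 CPM in E2F1 MO of stage 7 and 0 counts in E2F1 rescue, and it held no count in WT, E2F1 MO or E2F1 rescue libraries of stages 6 and 8.

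The whole set of zygotic genes was then taken from WT libraries of other stages alone. It held 1155 genes that rose 4-fold or more between stages 3 and 8 and were under 1 CPM at stage 3. Of these, 494 were lower in E2F1 rescue than in E2F1 MO (42.8%, against 23.3% of all genes tested) and 49 were higher, with a median log2 change of -1.04. Their summed level was 696.8 and 699.4 CPM in E2F1 rescue, against 2221 and 2226 CPM in E2F1 MO, and 1205 and 1199 CPM in WT of stage 7. The sums did not overlap, with E2F1 MO highest and E2F1 rescue lowest. At stage 6 the sums lay together, at 471.8 and 426.7 CPM in E2F1 rescue, 494.3 and 454.4 CPM in E2F1 MO, and 464.4 and 447.1 CPM in WT. At stage 8 they were 758.2 and 805.1 CPM in E2F1 rescue, 2403 and 2409 CPM in E2F1 MO, and 3873 and 3893 CPM in WT. Thus E2F1 MO stood at stage 7 near its own level of stage 8, and the E2F1 rescue sum at stage 8 was below the WT sum at stage 7. The other morpholino groups of stage 7 did not share the high sum: it was 1337 and 1435 CPM in the group with E2F1 and OTX1 morpholinos and 1324 CPM in each library of OTX1 MO.

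**Figure D2:**
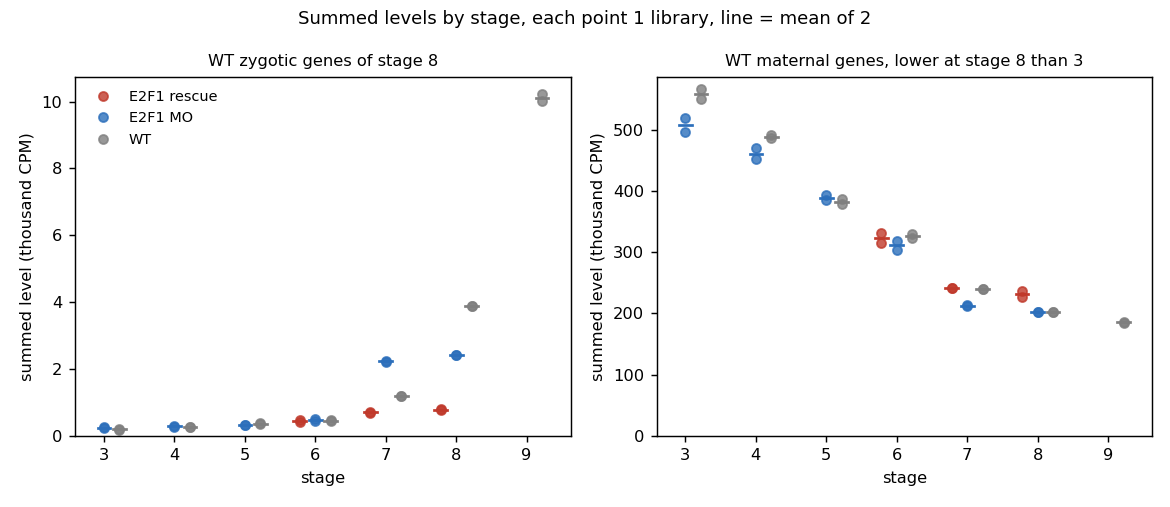
Summed CPM of 1155 zygotic genes of stage 8 (left) and 1564 maternal genes that fall between stages 3 and 8 (right), both set from WT libraries, by stage. Points are libraries and lines the mean of 2, in red for E2F1 rescue (stages 6 to 8), blue for E2F1 MO (stages 3 to 8) and grey for WT (stages 3 to 9). At stage 7 the zygotic sum of E2F1 MO (2221 and 2226 CPM) lies above both other groups and that of E2F1 rescue (696.8 and 699.4 CPM) below them.

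Maternal RNAs that WT embryos lose moved the other way. In WT, 1564 genes were at 20 CPM or more at stage 3 and fell 2-fold or more by stage 8. Of these, 784 were higher in E2F1 rescue than in E2F1 MO (50.1%, against 20.1% of all genes tested) and 142 lower. The median log2 change was 0.191, and 0.182 to 0.197 without any 1 library. With total counts alone as scaling 658 were higher and 215 lower, with a median of 0.126. That scaling also shifted the calls over all 16063 genes tested, to 2609 higher and 4409 lower. The 1564 genes were abundant at stage 3 whereas all genes tested include low ones, so the shares are not matched for level. A fit on the 4 libraries compared, with 12825 genes tested, called 1062 of the 1564 higher and 248 lower. Of all genes in that fit, 4576 were called higher and 4758 lower. The 1564 genes summed to 240700 and 241000 CPM in E2F1 rescue, against 211900 and 213100 CPM in E2F1 MO, and 240200 and 239600 CPM in WT. E2F1 rescue and WT of stage 7 lay close, and E2F1 MO of stage 7 lay lower, between them and WT of stage 8 with 202000 and 202300 CPM. Here the other morpholino groups of stage 7 were near E2F1 MO, with 211000 and 212700 CPM in OTX1 MO and 213800 and 206900 CPM in the group with both morpholinos. In WT, 610 genes were 2-fold or more lower at stage 7 than at stage 6. Of these, 332 were higher in E2F1 rescue (54.4%, against 20.1% of all genes tested) and 60 lower. The median log2 change was 0.908, and 0.872 to 0.944 without any 1 library. Of the 1157 that were 2-fold or more higher at stage 7 in WT, 95 were higher in E2F1 rescue and 499 lower (43.1%, against 23.3% of all genes tested). Their median was -0.51, and -0.545 to -0.495 without any 1 library. With total counts alone as scaling the counts were 319 higher and 64 lower of the 610, and 79 higher and 526 lower of the 1157. WT libraries of stage 7 set these 2 lists but enter neither side of the comparison. Against WT of stage 7, the median log2 change of the 1157 genes was -0.487 in E2F1 MO and -1.07 in E2F1 rescue. For the 610 genes it was 0.838 in E2F1 MO and 2.01 in E2F1 rescue. In both lists E2F1 rescue thus lay further from WT than E2F1 MO did. Because WT of stage 7 set the lists, a shift away from WT in this direction follows in part from the choice.

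The largest rises were in RNAs already held at stage 3 that were at or near 0 in E2F1 MO. nostrin, which encodes a protein that guides nitric oxide synthase within the cell, had 35.5 and 37.4 CPM in E2F1 rescue, against 0 and 0.0329 CPM in E2F1 MO, a ratio of 2345 with a 95% counting interval of 420.4 to 92680 (adjusted p = 1.49e-27, edgeR quasi-likelihood test). WT of stage 7 held 0 counts of nostrin, while WT of stage 6 held 50.5 ± 1.51 CPM and WT of stage 8 held 38.1 ± 1.81 CPM (SD, n = 2 each). E2F1 rescue was thus the only group of stage 7 with a clear level. tmem47, a membrane protein gene, had 5.02 and 5.16 CPM in E2F1 rescue and 0 counts in E2F1 MO and WT of stage 7, at least 109-fold higher than in E2F1 MO (adjusted p = 1.43e-14). sorcs3, a sorting receptor gene, had 13.7 and 14.4 CPM in E2F1 rescue, against 0 and 0.0658 CPM in E2F1 MO, a ratio of 453 with an interval of 125 to 3748 (adjusted p = 5.84e-19). Both were also near 0 in WT of stage 8.

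Other RNAs were at or near 0 in E2F1 MO at stage 7 but not at stages 6 and 8. cdr2l had 20.2 and 19 CPM in E2F1 rescue, against 0.0885 and 0.0329 CPM in E2F1 MO, and 10.9 and 10.1 CPM in WT (log2 change 8.18 ± 0.30, adjusted p = 1.07e-24). At stage 8 cdr2l was back at 17.4 ± 4.44 CPM in E2F1 rescue and 16.6 ± 0.268 CPM in E2F1 MO (SD, n = 2 each). hmox1, the enzyme that breaks down haem, had 39.6 and 38.3 CPM in E2F1 rescue, against 0.0295 and 0.0988 CPM in E2F1 MO, and 3.66 and 1.75 CPM in WT (log2 change 9.17 ± 1.35, adjusted p = 5.66e-06). opn8, an opsin gene, had 40.9 and 39.6 CPM in E2F1 rescue, against 0.501 and 0.263 CPM in E2F1 MO, and 4.57 and 4.81 CPM in WT (log2 change 6.68 ± 0.34, adjusted p = 4.36e-15). In these 3 genes the WT libraries of stage 7 lay between those of E2F1 rescue and E2F1 MO. They were chosen among the largest rises, for which E2F1 rescue above E2F1 MO without overlap was a condition. The absence of overlap between E2F1 rescue and E2F1 MO therefore adds nothing to the tests. p2ry10, a receptor gene, had 8.68 and 10.3 CPM in E2F1 rescue, against 0.0295 and 0.0329 CPM in E2F1 MO and 0 counts in WT (adjusted p = 1.6e-20), and stood at 16.6 ± 0.577 CPM in E2F1 MO of stage 8.

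Genes present in one group and missing from the other were then counted, by a rule set after the values were seen and with no test. At 5 CPM or more in E2F1 rescue and 3 counts or fewer in E2F1 MO stood 7 genes, 5 of them with a symbol (espnl, nostrin, p2ry10, sorcs3 and tmem47). All 7 held 1 CPM or more in every group of stages 3 to 6, 0 of 7 did so in WT, OTX1 MO and the group with both morpholinos at stage 7, and 3 did so in WT of stage 8. In E2F1 rescue of stage 8 all 7 did. The reverse rule took 31 genes, 11 of them with a symbol, 29 of which held 1 CPM or more in WT of stage 8 and 1 of which did so in WT of stage 7. The exceptions at stage 8 were lingo4 and mapk4, a kinase gene with 7.21 CPM in E2F1 MO of stage 7 and at most 0.74 CPM in any other group. The labels name no clutch and no time of collection. For these genes, as for every other difference between the 2 groups, the injected mRNA, the clutch and the moment of collection cannot be told apart.

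**Figure D3:**
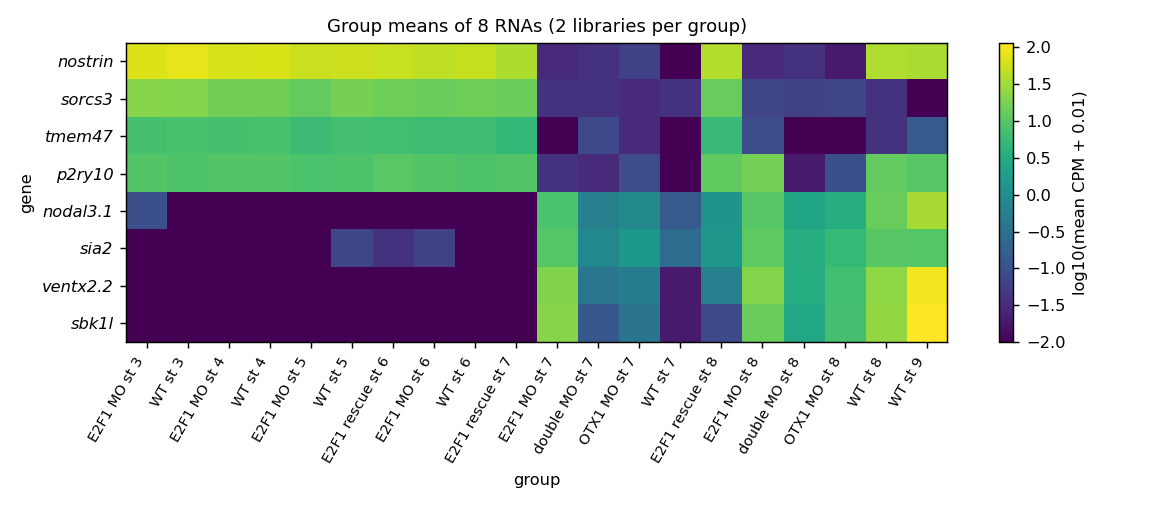
Mean level over 2 libraries of 8 RNAs in the groups of stages 3 to 9, as log10 of CPM plus 0.01, with the darkest colour at 0 CPM. nostrin, sorcs3, tmem47 and p2ry10 are present in every group of stages 3 to 6 and, at stage 7, in E2F1 rescue, whereas nodal3.1, sia2, ventx2.2 and sbk1l are, among the groups of stage 7, brightest in E2F1 MO.

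Changes in the genes for E2F factors and their direct partners were below 2-fold. Of 11 tested genes for E2F factors, their DP partners and pocket proteins, 5 were higher (45.5%, against 20.1% of all genes tested) and 2 lower (18.2%, against 23.3%). With total counts alone as scaling 3 were higher and 3 lower, against 2609 and 4409 of all 16063 genes tested. The median log2 change was 0.153, against 0.0883 with total counts alone, and 0.134 to 0.177 without any 1 library. e2f7, an E2F repressor that is itself an E2F target in mammals, had 36.4 and 35.1 CPM in E2F1 rescue, against 25.4 and 24.2 CPM in E2F1 MO, and 28.4 and 29 CPM in WT (log2 change 0.53 ± 0.10, adjusted p = 1.99e-05). tfdp1, the main DP partner, had 135 and 132 CPM in E2F1 rescue, against 97.9 and 98.2 CPM in E2F1 MO, and 126 and 131 CPM in WT (log2 change 0.45 ± 0.07, adjusted p = 1.09e-06). rb1, the retinoblastoma pocket protein, had 136 and 137 CPM in E2F1 rescue, against 185 and 184 CPM in E2F1 MO, and 146 and 143 CPM in WT (log2 change -0.44 ± 0.06, adjusted p = 2.08e-07). The E2F1 rescue and E2F1 MO libraries did not overlap in e2f7, tfdp1 and rb1. These were picked as called genes and the share over all genes was not counted, so this adds nothing to the tests. e2f3 was higher by 0.40 ± 0.06 on the log2 scale (adjusted p = 1.5e-06). The calls of rbl1, rbl2 and tfdp2 were lost without 1 library, with adjusted p of up to 0.204, 0.325 and 0.106. otx1, the other factor of the series title, had 136 and 135 CPM in E2F1 rescue, against 144 and 145 CPM in E2F1 MO, and 106 and 101 CPM in WT, which did not pass the test (log2 change -0.10 ± 0.09, adjusted p = 0.427).

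DNA replication genes, the best known E2F targets, were called in both directions at shares not far from those of all genes. Of 74 tested, 20 were higher (27%, against 20.1% of all genes tested) and 24 lower (32.4%, against 23.3%), with a median log2 change of 0.0147 (-0.0499 with total counts alone as scaling). cdc7, a kinase that fires replication origins, had 184 and 183 CPM in E2F1 rescue, against 87.6 and 85.4 CPM in E2F1 MO, and 170 and 171 CPM in WT (log2 change 1.08 ± 0.07, adjusted p = 2.92e-17). dhfr, an enzyme of nucleotide supply, had 4.01 and 3.42 CPM in E2F1 rescue, against 11 and 9.88 CPM in E2F1 MO, and 7.99 and 6.9 CPM in WT (log2 change -1.49 ± 0.18, adjusted p = 7.95e-09). mcm3, a subunit of the replicative helicase, had 65.2 and 61 CPM in E2F1 rescue, against 125 and 126 CPM in E2F1 MO, and 89.2 and 89.5 CPM in WT (log2 change -0.99 ± 0.07, adjusted p = 1.35e-15). In cdc7 E2F1 rescue lay near WT, and in dhfr and mcm3 it lay below both other groups. pcna, the sliding clamp of DNA polymerase, was higher by 0.38 on the log2 scale (adjusted p = 0.00869), and tyms, which makes thymidylate, fell by 0.45 (adjusted p = 0.00119).

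Genes of mitosis were called higher more often than lower, and genes of DNA repair lower more often than higher. Of 68 mitosis genes 31 were higher (45.6%, against 20.1% of all genes tested) and 15 lower, with a median log2 change of 0.132. With total counts alone as scaling the counts were 26 and 21, and those of all 16063 genes tested were 2609 and 4409. Without any 1 library the median of the mitosis genes was 0.117 to 0.143. cdca3, a mitotic entry factor, had 67.2 and 65.6 CPM in E2F1 rescue, against 21.5 and 22.1 CPM in E2F1 MO, and 91.8 and 85.4 CPM in WT (log2 change 1.61 ± 0.08, adjusted p = 1.6e-19). ect2, a gene of cytokinesis, had 29.7 and 29.1 CPM in E2F1 rescue, against 98.3 and 102 CPM in E2F1 MO, and 31.5 and 33.6 CPM in WT (log2 change -1.76 ± 0.10, adjusted p = 3.73e-19). The Aurora kinase aurkb was higher by 0.86 and the polo kinase plk1 by 0.43 on the log2 scale (adjusted p of 1.25e-16 and 3.25e-09). Of 78 repair genes 37 were lower (47.4%, against 23.3% of all genes tested) and 13 higher, with a median of -0.188. That median was -0.2 to -0.17 without any 1 library. The lean was not seen at stage 8, where 18 of the 78 repair genes were lower and 21 higher, with a median of -0.033. Of all genes tested, 19.8% were lower and 20.1% higher at stage 8. brca2, a factor of homologous recombination, had 57.2 and 53.9 CPM in E2F1 rescue, against 118 and 114 CPM in E2F1 MO, and 43.3 and 44.8 CPM in WT (log2 change -1.07 ± 0.16, adjusted p = 8.93e-06). fancd2 of the Fanconi anaemia pathway was lower by a log2 change of -1.24 ± 0.19 (adjusted p = 7.11e-07).

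Cyclins, CDKs and CDK inhibitors gave 10 higher and 10 lower of 33 tested (30.3% each way, against 20.1% higher and 23.3% lower of all genes tested). cdknx, a frog inhibitor of cyclin-dependent kinases, had 4.86 and 4.76 CPM in E2F1 rescue, against 0.973 and 1.19 CPM in E2F1 MO (log2 change 2.16 ± 0.24, adjusted p = 9.38e-10). cdkn1a, the p21 inhibitor induced by p53, had 1.2 and 1.34 CPM in E2F1 rescue, against 3.89 and 4.61 CPM in E2F1 MO (log2 change -1.73 ± 0.29, adjusted p = 3.46e-06). The 2 inhibitors moved in opposite directions. Neither overlapped between the groups, but both were picked as called genes, so this adds nothing to the tests. Of the 9 MuvB and Myb genes, which control late cell cycle transcription, 1 was higher and 1 lower (11.1% each way). mybl1 had 10.5 and 11.1 CPM in E2F1 rescue, against 2.65 and 3.23 CPM in E2F1 MO, and 9.51 and 10.5 CPM in WT (log2 change 1.88 ± 0.18, adjusted p = 9.94e-12). Of 49 apoptosis and p53 genes 15 were higher (30.6%) and 12 lower (24.5%). tp63, a p53 family factor, had 5.98 and 6.21 CPM in E2F1 rescue, against 0.0885 and 0.0329 CPM in E2F1 MO (log2 change 6.50 ± 0.60, adjusted p = 1.6e-09), and gadd45g, a growth arrest gene, was lower by a log2 change of -5.62 ± 0.45 (adjusted p = 2.11e-13).

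**Figure D4:**
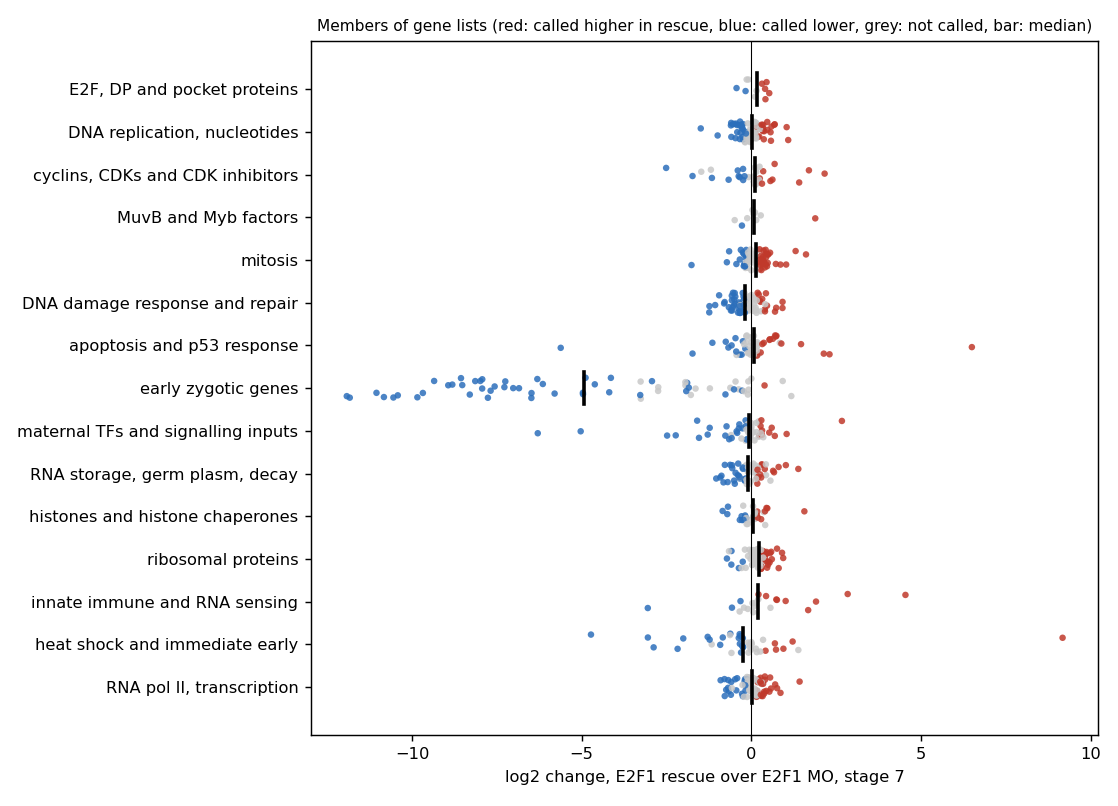
Log2 change, E2F1 rescue over E2F1 MO at stage 7, of each tested member of 15 gene lists. Points are genes, coloured red where called higher, blue where called lower and grey where not called, and the black bar is the list median. Early zygotic genes reach -11.92, where fitted changes of genes at 0 counts in 1 group depend on the fit, while the median of mitosis genes is 0.132 and that of DNA repair genes -0.188.

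A list drawn up for maternal transcription factors and signalling inputs gave 10 higher and 21 lower of 55 tested (38.2% lower, against 23.3% of all genes). The deepest falls in it were those of pou5f3.1 and sox2, which were not maternal here, since WT of stage 3 held 0.0299 and 0.246 CPM of them on average and WT of stage 8 held 11.4 and 8.22 CPM. pou5f3.1, an Oct4-related factor, had 0 and 0.0727 CPM in E2F1 rescue, against 3.3 and 3.42 CPM in E2F1 MO, a ratio of 0.0111 with an interval of 0.00134 to 0.0407 (adjusted p = 1.66e-15). Its maternal relative pou5f3.3 had 770 and 781 CPM in E2F1 rescue, against 804 and 789 CPM in E2F1 MO, and was not called (adjusted p = 0.598). sox2, a neural and pluripotency factor, had 0.116 and 0.4 CPM in E2F1 rescue, against 8.67 and 8.79 CPM in E2F1 MO, and 0.41 and 0.175 CPM in WT (log2 change -5.03 ± 0.41, adjusted p = 7.27e-11). sox3, its abundant maternal relative, was lower by a log2 change of -0.12 ± 0.05 (adjusted p = 0.0332). ctnnb1, the beta-catenin of the Wnt pathway, was not called (log2 change -0.05 ± 0.05, adjusted p = 0.428). wnt11b, a maternal vegetal Wnt ligand, had 87.4 and 91.8 CPM in E2F1 rescue, against 42.5 and 44.8 CPM in E2F1 MO, and 85.1 and 76.9 CPM in WT (log2 change 1.04 ± 0.07, adjusted p = 9.01e-16).

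Of 66 genes for the storage and decay of maternal RNA and for germ plasm, 14 were higher (21.2%, against 20.1% of all genes tested) and 23 lower (34.8%, against 23.3%). The median log2 change was -0.0991, and -0.122 to -0.0758 without any 1 library. lsm14b, an RNA-binding protein of stored RNA granules, had 303 and 305 CPM in E2F1 rescue, against 119 and 114 CPM in E2F1 MO, and 252 and 239 CPM in WT (log2 change 1.38 ± 0.07, adjusted p = 3.59e-19). velo1, a gene for a Balbiani body protein of the oocyte, had 255 and 253 CPM in E2F1 rescue, against 519 and 523 CPM in E2F1 MO, and 257 and 245 CPM in WT (log2 change -1.04 ± 0.08, adjusted p = 4.71e-14). In velo1 E2F1 rescue overlapped WT and E2F1 MO stood above both.

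Ribosomal protein genes gave 26 higher and 5 lower of 78 (33.3% higher, against 20.1% of all genes), with a median log2 change of 0.213. With total counts alone as scaling 16 were higher and 7 lower, against 2609 and 4409 of all 16063 genes tested. Without any 1 library the median was 0.163 to 0.243. rpl37a had 19.4 and 19.7 CPM in E2F1 rescue, against 9.85 and 11.1 CPM in E2F1 MO, and 25.2 and 25.5 CPM in WT (log2 change 0.90 ± 0.15, adjusted p = 5.16e-06), although copies of ribosomal protein genes make these counts uncertain. Of 40 heat shock and immediate early genes 19 were lower (47.5%, against 23.3% of all genes tested) and 6 higher (15%, against 20.1%). The median log2 change was -0.252, and -0.255 to -0.243 without any 1 library. dusp5, a phosphatase induced by growth factor signals, had 0.347 and 0.545 CPM in E2F1 rescue, against 2.77 and 3.95 CPM in E2F1 MO (log2 change -2.88 ± 0.28, adjusted p = 2.92e-11), while hmox1 of the same list rose. Of 21 innate immune genes 9 were higher (42.9%) and 3 lower (14.3%). mx1, an antiviral GTPase, had 0.849 and 0.509 CPM in E2F1 rescue, against 5.81 and 5.46 CPM in E2F1 MO (log2 change -3.05 ± 0.31, adjusted p = 4.55e-11), whereas trim25, which acts in RNA sensing, had 2.66 and 1.93 CPM in E2F1 rescue, against 0.118 and 0.0658 CPM in E2F1 MO (log2 change 4.54 ± 0.46, adjusted p = 7.93e-11). Histones and their chaperones gave 8 higher (25.8%) and 9 lower (29%) of 31. Their median log2 change was 0.0476, and -0.0419 to 0.0597 without any 1 library. RNA polymerase II and transcription machinery genes gave 24 higher (30%) and 19 lower (23.8%) of 80.

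Levels of WT place the 2 injected groups side by side. Both further comparisons share libraries with the one above. E2F1 MO differed from WT of stage 7 in 7588 genes (47.2%), of which 4062 were higher (25.3%) and 3526 lower, and 2289 differed by 2-fold or more (14.3%). E2F1 rescue differed from WT in 5348 genes (33.3%), of which 2642 were higher (16.4%) and 2706 lower (16.8%), and 1483 differed by 2-fold or more (9.23%). In the list of early zygotic genes, E2F1 MO was higher than WT for 48 of 64 genes and lower for 3, with a fitted median log2 change of 5.04. The size of that median depends on the fit, since 17 of the 64 genes held 0 counts in WT of stage 7. E2F1 rescue was higher than WT for 5 of the 64 genes and lower for 5, with a median of 0. Only 9 of the 64 genes reached 1 CPM in both libraries of E2F1 rescue and 8 in WT, so this median does not show equal levels. Of the 1155 WT zygotic genes of stage 8, 248 were lower in E2F1 rescue than in WT of stage 7 and 44 higher, with a median log2 change of -0.461. Across 9997 genes the mean log2 level of E2F1 rescue of stage 7 had a Pearson correlation of 0.9938 with E2F1 rescue of stage 8, 0.9891 with E2F1 MO of stage 6, 0.957 with E2F1 MO of stage 7 and 0.9748 with WT of stage 7. That of E2F1 MO of stage 7 was highest with E2F1 MO of stage 8, at 0.9782. These correlations are across genes, which are not independent replicates, between group means of 2 libraries.

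At stage 6 the groups were hardly apart. There 20 genes were called between E2F1 rescue and E2F1 MO (0.125%), 6 higher (0.0374%) and 14 lower (0.0872%). Of these, 1 changed by 2-fold or more (0.00623%), and 1453 genes had an unadjusted p under 0.05. No gene of the early zygotic list was called, but 36 of its 64 genes held 0 counts in E2F1 rescue and 39 in E2F1 MO. Only 8 and 9 of them reached 1 CPM in both libraries, so few could be called. The change at stage 7 differed from that at stage 6 for 4240 genes (26.4%), 2107 with a larger value at stage 7 (13.1%) and 2133 with a smaller one (13.3%), and by 2-fold or more for 1402 (8.73%; edgeR quasi-likelihood test of the difference). For nostrin the difference of log2 changes was 10.59 (adjusted p = 3.64e-24). Its size depends on the fit, because E2F1 MO of stage 7 held 0 and 0.0329 CPM. espnl stood at 1.43 ± 0.283 CPM in E2F1 rescue and 4.43 ± 0.991 CPM in E2F1 MO of stage 6 (SD, n = 2 each), and its change was called higher at stage 7 (adjusted p = 4.98e-05), with a size that depends on the fit because E2F1 MO of stage 7 held 0 counts. sbk1l, ventx2.2, admp and other genes with 0 counts in every stage 6 library of both groups have no defined change at stage 6, and the test of the difference says nothing about them.

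At stage 8 the difference was again wide. Here 6409 genes were called (39.9%), 3221 higher (20.1%) and 3188 lower (19.8%), 1620 of them by 2-fold or more (10.1%), in libraries that share none with stage 7. Of the 3221 genes higher at stage 8, 1547 were also higher at stage 7 (48%, against 20.1% of all genes tested) and 250 lower. Their median log2 change at stage 7 was 0.21, and 0.207 to 0.217 without any 1 library of stage 7. With total counts alone as scaling 1291 of them were higher at stage 7 and 370 lower. Of the 3188 lower at stage 8, 1721 were also lower at stage 7 (54%, against 23.3% of all genes tested) and 220 higher. In the early zygotic list 47 of 64 genes were lower at stage 8 and 2 higher, with a median log2 change of -3.55. The median at stage 7 was -4.92 as fitted, or -3.55 with genes at 0 counts at their bound. The stage 8 median is as fitted, with no bound set, although 17 of the 64 genes held 0 counts in E2F1 rescue of stage 8. The medians therefore give no order of the stages. The change at stage 8 minus that at stage 7 was called for 4023 genes (25.0%), 2311 with a larger (14.4%) and 1712 with a smaller value at stage 8 (10.7%), and 1096 differed by 2-fold or more (6.82%). sia2 stood at 1.43 ± 0.701 CPM in E2F1 rescue and 11.3 ± 0.106 CPM in E2F1 MO of stage 8. Its change was called less negative at stage 8 than at stage 7 (adjusted p = 1.79e-06), but the size of that difference depends on the fit, since E2F1 rescue of stage 7 held 0 counts. The rises of hmox1, p2ry10 and cdr2l were not kept, with differences of -8.62, -8.51 and -8.11 (adjusted p of 4.66e-04, 1.65e-18 and 5.09e-21). These sizes depend on the fit, since E2F1 MO of stage 7 was near 0. For nostrin no difference was called between the stages. E2F1 MO held 0.0165 CPM of it at stage 7 and 0.0155 CPM at stage 8, too little to give a size. E2F1 rescue of stage 8 had the widest spread between replicates of the groups compared here.

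**Figure D5:**
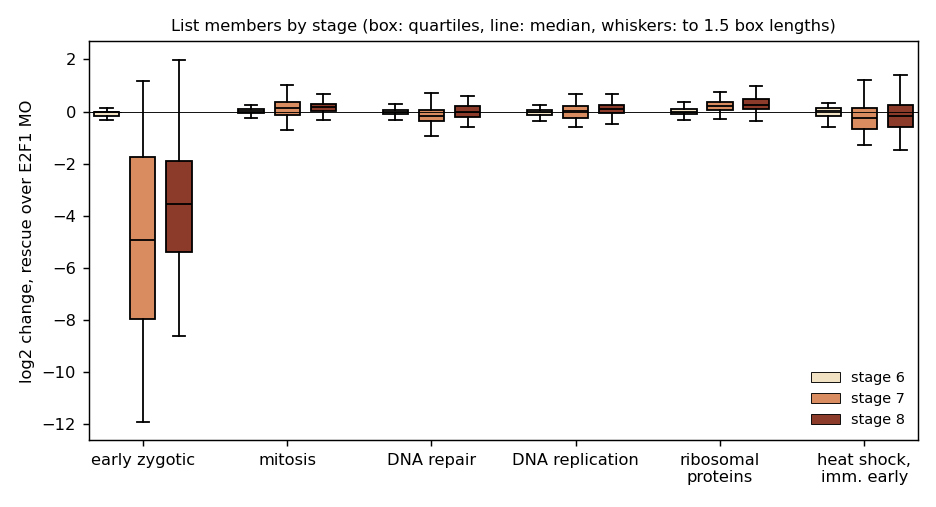
Log2 change of list members in E2F1 rescue over E2F1 MO at stages 6, 7 and 8. Boxes give the quartiles, the black line the median and whiskers reach up to 1.5 box lengths. The early zygotic list lies at 0 at stage 6, where most of its genes held 0 counts in each group. Its median as fitted is -4.92 at stage 7 (-3.55 with genes at 0 counts in 1 group at their bound) and -3.55 at stage 8, where no bound was set. The medians of the mitosis list are 0.016, 0.132 and 0.172.

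Changes seen in E2F1 MO against WT at other stages were set beside stage 7, in libraries not used for the comparison. Of 4202 genes higher in E2F1 MO than in WT at stage 8, 1640 were lower in E2F1 rescue than in E2F1 MO at stage 7 (39%, against 23.3% of all genes tested) and 650 higher, with a median log2 change of -0.151. Of 3801 genes lower in E2F1 MO at stage 8, 1314 were higher in E2F1 rescue at stage 7 (34.6%, against 20.1%) and 706 lower, with a median of 0.114. For the 189 genes higher in E2F1 MO than in WT at stage 6 the counts were 49 higher (25.9%, against 20.1% of all genes tested) and 50 lower (26.5%, against 23.3%). For the 124 genes lower in E2F1 MO at stage 6 they were 20 higher (16.1%) and 57 lower (46%, against 23.3% of all genes tested).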

How the data were processed

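Messenger RNA from whole embryos of Xenopus tropicalis was sequenced with a stranded mRNA library kit, per the labels' protocols. The deposited table holds raw read counts per gene. The submitters' processing notes name fastp, STAR 2.7.0e, featureCounts 2.0.1 and deepTools. The genome build and the strand setting of counting were not given in the sources used here. Overlapping and antisense genes are therefore uncertain. Gene length in the deposited table, as the authors' featureCounts file gives it (unit other), was not used. Of 28778 genes, 12714 with low counts were removed (edgeR filterByExpr, minimum count 10) and 16064 were kept, with at least 99.95% of the counts of each library. Counts were scaled with TMM factors, and edgeR 4.0.16 quasi-likelihood tests were run in R 4.3.3 on all 44 libraries in 22 groups (22 residual degrees of freedom, biological coefficient of variation 6.11%), with Benjamini-Hochberg adjustment over all genes and a call at an adjusted p under 0.05. The script was tested on simulated data. Total counts ran between 9266513 and 37174326 per library, median 20541736. Intervals of ratios are at 95% and, like the floor of 3 counts over a group, cover counting error only. The SE given with a log2 change is its size divided by the square root of the F statistic of its test. It is not a standard error of the fit and is unreliable where a group held few counts. Of the gene names, 26459 matched RefSeq symbols.

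Groups came from the labels. Named genes were the 12 largest rises and falls with a symbol, 5 CPM or more where higher and no overlap, the 4 called genes per list that changed most, the 3 largest differences each way between stages, otx1 and the E2F list. nodal5, lefty, gsc, sia1, mix1, sox17a, eomes, tfap2a, foxi1, bambi, vegt, nodal1, nodal2, pcna, tyms, aurkb, plk1, pou5f3.3, sox3, ctnnb1, wnt11b and mapk4 fall outside this rule and were chosen after their values were seen. The comparison, the lists and the tests were chosen with earlier results of these data known. Alternatives were RLE and total-count scaling, no filter, removal of e2f1, DESeq2 1.42.0, fits on fewer libraries, a replicate block and leaving out each library. Promoter motifs and sequences were not analysed here.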

Additional observations from a re-analysis of the deposited data

Results flagged for a closer look

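The change of E2F1 rescue over E2F1 MO differed between stages 7 and 6 for 4240 of 16063 genes (26.4%; edgeR quasi-likelihood test of the difference, adjusted p under 0.05). It differed for 63 of the 91 named genes. Most of these were chosen for called changes at stage 7 or large differences between stages, so their count follows in part from the choice. Among called genes with a symbol the largest differences of log2 change, stage 7 minus stage 6, were 12.12 for espnl, 10.59 for nostrin and 9.84 for c3, a complement gene. On the other side they were -10.42 for nodal6, -10.08 for sia2 and -9.93 for znf33b. The values of espnl and sia2 depend on the fit because 1 group held 0 counts at stage 7. That of nostrin does because E2F1 MO of stage 7 was near 0, and those of nodal6 and znf33b because stage 6 was at or near 0. Genes at 0 counts in all stage 6 libraries of both groups have larger fitted values but no defined difference. c3 had 6.14 and 6.36 CPM in E2F1 rescue of stage 7, against 0.0885 and 0.198 CPM in E2F1 MO, and at stage 6 it had 0.246 and 0.163 CPM in E2F1 rescue, against 1.53 and 7.07 CPM in E2F1 MO, where the replicates lay far apart.

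Between stages 8 and 7 the change differed for 4023 genes (25.0%) and for 48 of the named genes, a count that likewise follows in part from their choice. Among called genes the largest differences, stage 8 minus stage 7, were 7.85 for sia2, 7.51 for nodal3.1 and 7.08 for fam83c, and -8.62 for hmox1, -8.51 for p2ry10 and -8.11 for cdr2l. The values of sia2 and nodal3.1 depend on the fit, since E2F1 rescue of stage 7 held 0 counts. Those of hmox1, p2ry10 and cdr2l do so because E2F1 MO of stage 7 was near 0. fam83c had 2.59 and 2.33 CPM in E2F1 rescue of stage 7, against 38.7 and 39.6 CPM in E2F1 MO, and averaged 0.837 CPM in E2F1 rescue and 0.0933 CPM in E2F1 MO of stage 8. The size of its difference is also uncertain, since E2F1 MO of stage 8 was near 0. The part of clutch and collection time in these differences was not tested.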

How the results depend on the processing

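Calls at stage 7 numbered 6968 and stayed within 1.5 times that count under every alternative run. They were 6933 with DESeq2, 7009 with RLE scaling, 7018 with total counts alone, 6984 without e2f1, 6978 with no filter, 7781 on the 10 libraries of stage 7 and 9334 on the 4 libraries compared. With total counts alone 37.2% of calls were higher in E2F1 rescue, against 46.3%, since log2 changes shifted by a median of -0.06. Leaving out each stage 7 library gave 5415 to 5614 calls, 2413 to 2595 higher and 2893 to 3086 lower, and 1776 to 1890 of 2-fold or more. A lone library was then assumed to vary like the other groups. The difference between stages 7 and 6 was called for 3415 to 3625 genes and that between stages 8 and 7 for 2986 to 4937, with 4937 when replicate 2 of E2F1 rescue at stage 8 was left out. Of 86 named calls 12 were lost without 1 library, with the cause not tested, and 74 held, while 4 (rbl1, rbl2, tfdp2 and cdkn2c) were lost under another scaling, filter, tool or fit. In counts added after seeing the data, 6288 calls remained without WT zygotic genes and 6600 without genes at 0 in 1 group.

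Same-numbered libraries of the 2 groups at stage 7 had deviations correlated at 0.0137, against 0.284 at stage 6 and -0.0898 at stage 8. The labels state no pairing, and the numbers were not taken as one. With a replicate block 7134 genes were called, 3320 higher and 3814 lower, 1996 of them by 2-fold or more, and the differences between stages were called for 4419 and 4310 genes.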
